A study of Mus musculus with 6 samples.

Results

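Serpins are a family of structurally related proteins named after the serine protease inhibitors among them. An inhibitory serpin offers an exposed loop to a protease as bait, and when the protease cuts the loop the serpin refolds and traps the enzyme in a dead complex, so that each molecule works once. Several members have lost this activity and carry hormones, act as extracellular signals or assist protein folding. The family is divided into clades by sequence, which the letter in each symbol gives. Secreted members of clades A, C, D and F control clotting, the breakdown of fibrin and inflammation, whereas most clade B members stay inside the cell.

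Serpin transcripts were read in the whole kidney of the mouse embryo at E18.5. The 6 samples were 3 pools of FoxD1;Dicer kidneys (genotype FoxD1GC;Dicer fl/fl) and 3 pools of kidneys from control littermates that carried no Cre, with 1 pool of each genotype from each of 3 litters and 2 embryos in each pool. In the mutants a fusion of eGFP and Cre recombinase, made from the endogenous FoxD1 locus, recombines a floxed Dicer allele in the renal stroma and its descendants, the interstitium, mesangium, pericytes and renin cells. Dicer is needed to produce mature miRNAs. The FoxD1GC allele is thus present in the mutant pools alone, and its effect and that of Dicer loss cannot be told apart. The FoxD1GC line was kept on a 129-Elite background and the Dicer fl/fl line on C57BL/6J. RNA of whole kidneys was read, so a change in a transcript per cell and a change in the number of cells that make it cannot be told apart.

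Members were all probes of the array annotated to a gene whose symbol begins with Serpin, apart from Serping1, which gave 79 probes for 55 genes of the 19052 genes named on the array. A probe was called detected when its detection p-value, which sets its signal against negative-control beads of the same array, was under 0.01 on at least 3 of the 6 arrays, and each gene was then read by its brightest detected probe. Of the 55 genes, 10 were detected and 45 were not. Levels are log2 intensities after background correction and quantile normalization, and changes are FoxD1;Dicer minus Control from a linear model (limma) with litter as a block, with the standard error (SE). Calls were made where the adjusted p fell under 0.05, after Benjamini-Hochberg adjustment over all 16898 detected probes of the array. Probes differ in how well they bind, so levels of different genes are not set against each other.

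The arrays had median intensities of 100.3 to 107.6, and 35.68% to 37.67% of probes were detected on each. Kidney transcripts were present, with 5 of 6 identity genes detected (Pax8, Cdh16, Lhx1, Umod and Slc12a1; the probe for Pax2 was not). Dicer1 gave a change of -0.28 ± 0.11 on its brightest probe (adjusted p = 0.24) and -0.63 ± 0.13 on a dimmer one (adjusted p = 0.045). The position of both probes relative to the deleted exon was not known here, so they do not check the deletion. Pools are listed below by litter, 1 to 3. The Y-linked gene Eif2s3y stood at 8.21, 4.29 and 4.28 in FoxD1;Dicer, against 8.5, 8.43 and 4.39 in Control kidneys. The pools of litter 2 thus differed in this transcript, and results are also given without that litter where a call was lost.

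Of the 10 detected serpins, 4 were called in FoxD1;Dicer kidneys. Serpina6, Serpinf2 and Serpina10 were lower, and Serpinb6b was higher. Of all 9920 tested genes 5.56% were called, 2.41% higher and 3.16% lower. An unadjusted p under 0.05 was reached by 5 of the 10, against 20.2% of all tested genes. Values of both genotypes did not overlap for 5 of the 10 genes, against 25.8% of all tested genes. Of the 10 changes 6 were positive and 4 negative, with a median of 0.05 against 0.01 over all tested genes, and the median was -0.01 without litter 1 and -0.04 without litter 3. The threshold of 3 arrays admits a gene through the genotype in which it is high, so these counts describe the detected members and not all 55. By clade, 5 of 21 genes were detected in clade A, 2 of 26 in clade B, 2 of 2 in clade F and 1 of 1 in clade H, with 0 of 5 in clades C, D, E and I.

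**Figure D1:**
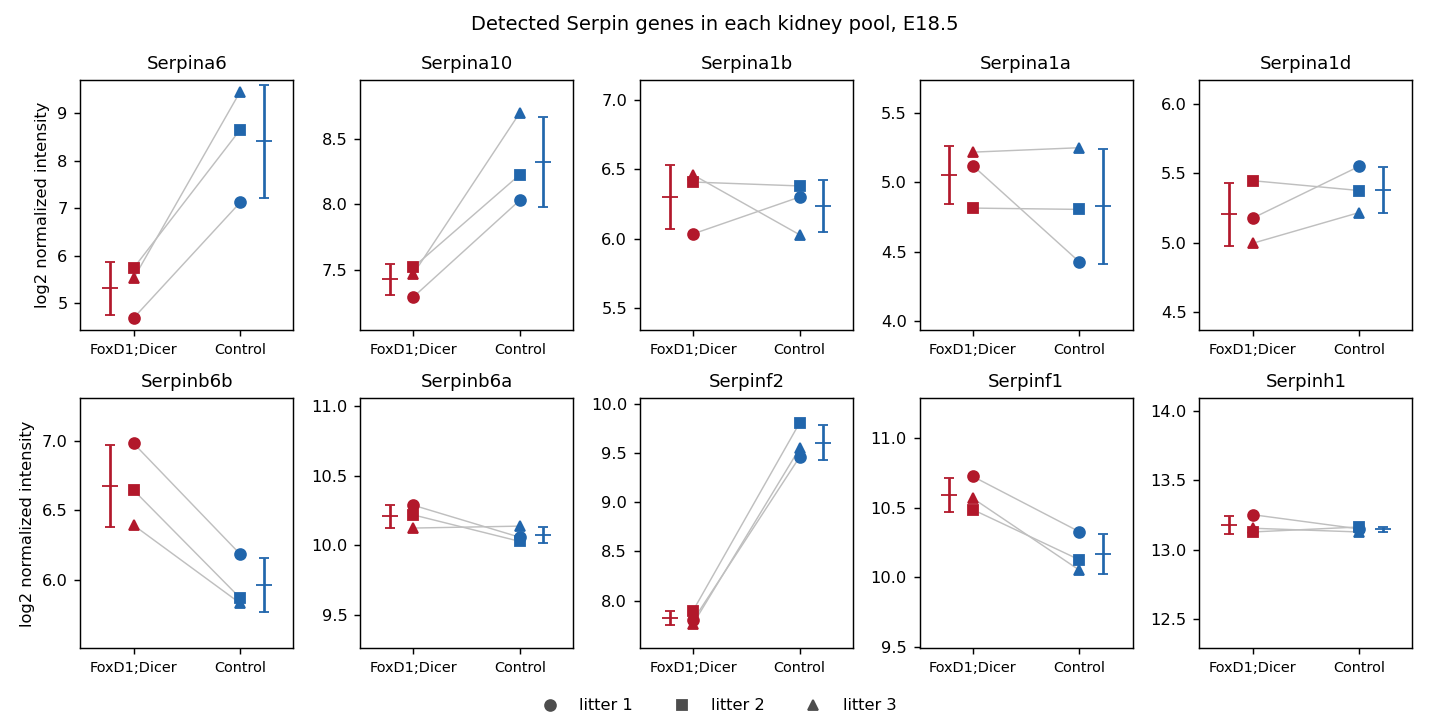
Log2 normalized intensity of the 10 detected Serpin genes in each pool, FoxD1;Dicer in red and Control in blue, with the symbol for the litter, grey lines joining pools of 1 litter and bars for mean ± SD (n = 3). Each panel has its own vertical range. Serpina6, Serpina10 and Serpinf2 lay lower in all 3 FoxD1;Dicer pools than in any Control pool, and Serpinb6b and Serpinf1 lay higher.

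The clade F genes Serpinf2 and Serpinf1 lie side by side on chromosome 11 with no other protein-coding gene between them (RefSeq annotation of GRCm38.p6) and had changes of opposite sign. Their promoters are shown for that reason, together with that of Serpinb6b, the serpin called higher. RefSeq promoter windows were at hand for 8 of the 10 detected genes. Each runs 5′ to 3′ on the strand of the gene, from 250 bases before to 50 bases after the transcription start. Serpinf2 lies on the minus strand at chr11:75439452-75439751, Serpinf1 on the minus strand at chr11:75422574-75422873 and Serpinb6b on the plus strand at chr13:32965011-32965310, all in GRCm38.p6. Capitals mark matches on either strand to AGGTCA, the half-site of many nuclear receptors, and to CAAAGGTC, a form of the site of the liver and proximal tubule factor HNF4, which shares letters with the first.
Serpinf2: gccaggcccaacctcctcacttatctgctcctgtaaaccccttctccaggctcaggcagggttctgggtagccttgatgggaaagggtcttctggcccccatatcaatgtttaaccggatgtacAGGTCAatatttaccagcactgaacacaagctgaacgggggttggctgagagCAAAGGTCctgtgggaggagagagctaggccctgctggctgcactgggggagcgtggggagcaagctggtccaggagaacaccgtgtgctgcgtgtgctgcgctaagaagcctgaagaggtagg
Serpinf1: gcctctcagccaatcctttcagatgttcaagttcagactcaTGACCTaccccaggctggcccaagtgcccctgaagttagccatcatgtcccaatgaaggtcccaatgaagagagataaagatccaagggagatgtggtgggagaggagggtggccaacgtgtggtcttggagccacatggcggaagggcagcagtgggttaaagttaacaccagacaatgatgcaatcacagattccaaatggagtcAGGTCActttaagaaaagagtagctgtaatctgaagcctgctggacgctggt
Serpinb6b: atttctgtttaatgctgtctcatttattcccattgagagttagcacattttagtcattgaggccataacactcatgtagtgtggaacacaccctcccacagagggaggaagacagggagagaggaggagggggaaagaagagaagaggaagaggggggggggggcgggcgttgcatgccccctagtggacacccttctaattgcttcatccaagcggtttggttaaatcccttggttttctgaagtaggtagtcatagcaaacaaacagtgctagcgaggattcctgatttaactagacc
The Serpinf2 window held 1 match to each motif, that of Serpinf1 held 2 matches to AGGTCA and that of Serpinb6b held 0. Among 32851 promoter windows of the same length, 16.3% held AGGTCA and 1.17% held CAAAGGTC. GTTAAT, a half-site of HNF1, and TATAAA, the TATA box, were searched too, occurred in 7.1% and 13.6% of windows and had 0 matches in these 3. The motifs were chosen after the windows had been seen, and a match is a description of the letters and not evidence of binding.

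Serpinf2 encodes alpha-2-antiplasmin, the main inhibitor of plasmin in blood, which slows the breakdown of fibrin. Its brightest probe read 7.80, 7.90 and 7.76 in the FoxD1;Dicer pools, against 9.46, 9.81 and 9.55 in the Control pools. All 3 mutant values lay far below the lowest control value, and the spread within each genotype was small, with 1.10-fold between the highest and lowest FoxD1;Dicer pool and 1.27-fold between Control pools. With a log2 change of -1.79 ± 0.11 (3.45-fold lower, adjusted p = 0.00096), it ranked 24 from the lowest among 9920 genes. The intensities before normalization were 294.4, 355.5 and 276.9 in FoxD1;Dicer and 792.3, 913.2 and 892.4 in Control pools. A second probe read 7.07, 6.82 and 7.22 in FoxD1;Dicer against 8.11, 8.72 and 8.39 in Control pools (-1.37 ± 0.18, adjusted p = 0.0090). The other read 6.54, 6.44 and 6.77 in FoxD1;Dicer against 8.0, 8.46 and 8.14 in Control pools (-1.62 ± 0.15, adjusted p = 0.0031). Neither overlapped between genotypes, and all 3 probes of the gene were called in the same direction. Serpinf2 was also the 1 serpin that stayed called without litter 2 (-1.72, adjusted p = 0.030).

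Serpinf1, its neighbour, encodes PEDF, a secreted serpin with no known protease target that acts on neurons and restrains the growth of vessels. It read 10.72, 10.49 and 10.57 in the FoxD1;Dicer pools and 10.33, 10.13 and 10.05 in the Control pools. The mutant pool was above its own control in all 3 litters, by 0.40, 0.36 and 0.52, and the genotypes did not overlap. The change of 0.43 ± 0.10 (1.34-fold) missed the threshold (adjusted p = 0.076). It passed with the authors' processed values (adjusted p = 0.011), with quantile normalization and no background correction (0.0096) and with an intensity trend in the variance (0.0064). In every other alternative it was not called, with adjusted p = 0.076 for median scaling and 0.095 without the litter block. The adjusted p was 0.13 with the mean of its probes and 0.18, 0.31 and 0.16 without litter 1, 2 and 3. A dim second probe gave 0.20 ± 0.12 (adjusted p = 0.44), with values from 5.25 to 5.69 in FoxD1;Dicer and from 5.20 to 5.25 in Control pools.

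Serpina6 encodes corticosteroid-binding globulin, the carrier of glucocorticoids in plasma, which inhibits no protease. It read 4.69, 5.74 and 5.52 in the FoxD1;Dicer pools and 7.12, 8.65 and 9.45 in the Control pools. The genotypes did not overlap, but the Control pools differed among themselves by 5.03-fold, the widest spread of the 10 genes, and the FoxD1;Dicer pools by 2.07-fold. The array detected it in all 3 Control pools and in 2 of the 3 FoxD1;Dicer pools, with the mutant pool of litter 1 not above background. The measured log2 change was -3.09 ± 0.26 (8.51-fold lower, adjusted p = 0.0024), with -2.91 and -3.93 in litters 2 and 3. Its intensities before normalization were 108.5, 144 and 121.5 in FoxD1;Dicer pools, close to the array medians, against 221.6, 456.9 and 839.3 in Control pools. The size of the change moved with the processing. It was -1.82 with quantile normalization and no background correction, -1.81 with median scaling and -1.52 with the authors' processed values, and it was called in each. Without litter 2 it was -3.18 and was not called (adjusted p = 0.054).

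Serpina10 encodes the inhibitor of coagulation factor Xa that depends on protein Z. It is the gene next to Serpina6 on chromosome 12. It read 7.30, 7.52 and 7.47 in the FoxD1;Dicer pools and 8.03, 8.23 and 8.70 in the Control pools. The highest mutant value lay below the lowest control value, and litter 3 had the largest gap (-1.22, against -0.74 and -0.70 in litters 1 and 2). The log2 change was -0.89 ± 0.14 (1.85-fold lower, adjusted p = 0.016). It was -0.58 with the authors' processed values and still called. Leaving out litter 2 ended the call (-0.98, adjusted p = 0.115).

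The alpha-1-antitrypsin genes, the inhibitors of neutrophil elastase, follow further along the same cluster and exist in several near-identical copies in the mouse, so their probes may not tell copies apart. The brightest Serpina1b probe read 6.04, 6.41 and 6.46 in the FoxD1;Dicer pools and 6.30, 6.38 and 6.03 in the Control pools. The values overlapped, and the change was 0.06 ± 0.15 (adjusted p = 0.86), with a 95% confidence interval of -0.29 to 0.42. Both other Serpina1b probes changed by -0.12 and 0.05 and were not called. Serpina1a was detected on 2 FoxD1;Dicer and 1 Control array and changed by 0.22 ± 0.16 (adjusted p = 0.50), and Serpina1d, detected on 2 and 3 arrays, by -0.17 ± 0.12 (adjusted p = 0.49). The detected probes of both genes lay between 4.43 and 5.55 in every pool. Serpina16 and Serpina1f, which lie between Serpina6 and the antitrypsin copies, were not detected.

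Many plasma serpins are made in the liver. Markers of liver and of proximal tubule were read beside the falls. Of 7 proximal tubule genes, 7 were detected and 6 were called lower (median change -1.24), beside 3.16% of all tested genes. Their summed linear level was 5465 to 7407 in FoxD1;Dicer and 10330 to 14690 in Control pools. Slc5a2, 1 of the 6 in this list, was detected on 3 Control and 0 FoxD1;Dicer arrays. It was admitted through the Control pools. Hnf4a, a member of that list, had a change of -0.16 ± 0.11 (adjusted p = 0.47). Of 6 liver genes on the array, 4 were detected and 0 called, with sums of 300.4 to 425.9 in FoxD1;Dicer and 341.9 to 437.6 in Control pools. Apoa2 was lower in all 3 litters and just missed the threshold (-0.70 ± 0.15, adjusted p = 0.052). Afp, Ahsg and Apoa1 changed by 0.08, -0.03 and 0.02. Alb, the albumin gene, and Fgb were not detected. In the adrenal cortex list 0 of 6 genes were detected. The part of the proximal tubule change in the falls of Serpinf2, Serpina6 and Serpina10 was not tested.

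Serpinb6b and Serpinb6a belong to clade B, whose members mostly act inside cells. Both are mouse relatives of human SERPINB6, an inhibitor of cathepsin G. Serpinb6b read 6.98, 6.64 and 6.39 in the FoxD1;Dicer pools and 6.18, 5.87 and 5.83 in the Control pools. Every mutant pool lay above every control pool, with within-litter changes of 0.80, 0.78 and 0.56. The gene was 1.64-fold higher (log2 change 0.71 ± 0.11, adjusted p = 0.016). Its intensities were 204.3, 197.8 and 155.6 in FoxD1;Dicer against 156.5, 140 and 142.9 in Control pools, where the 2 ranges did overlap. The change was 0.36 with median scaling and not called (adjusted p = 0.1155), and 0.27 with the authors' processed values and called (adjusted p = 0.044). The call was also lost without the litter block (adjusted p = 0.052), without litter 1 (0.060) and without litter 2 (0.17).

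Serpinb6a read 10.29, 10.22 and 10.12 in the FoxD1;Dicer pools and 10.06, 10.03 and 10.14 in the Control pools, which overlapped. Its change was 0.14 ± 0.11 (adjusted p = 0.55, 95% confidence interval -0.12 to 0.39). The copies of this group resemble each other and are uncertain as single genes. Markers of leukocytes were read beside Serpinb6b. Of all tested genes 2.41% were called higher. All 6 macrophage genes on the array rose, from Csf1r (0.62 ± 0.11, adjusted p = 0.025) to C1qb (1.32 ± 0.12, adjusted p = 0.0029). Their sums were 1080 to 1110 in FoxD1;Dicer and 472.1 to 527.4 in Control pools. Of the 3 neutrophil genes detected of 6, S100a8 and S100a9 rose. Ltf overlapped between genotypes and was not called (0.45 ± 0.12, adjusted p = 0.10). The 3 had sums of 940.2 to 1138 against 299.6 to 365.8, while Ngp, Camp and Elane were not detected. Of 5 mast cell genes 2 were detected and 0 called. The part of these cells in the rise of Serpinb6b was not tested.

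Serpinh1 encodes HSP47, a chaperone of the endoplasmic reticulum that binds folding procollagen. It read 13.25, 13.13 and 13.15 in the FoxD1;Dicer pools and 13.15, 13.16 and 13.13 in the Control pools. The change was 0.03 ± 0.10 (adjusted p = 0.91) with a 95% confidence interval of -0.21 to 0.28. A second probe read 9.77, 9.50 and 9.78 in FoxD1;Dicer against 9.56, 9.39 and 9.38 in Control pools (0.24 ± 0.11, adjusted p = 0.29), with the mutant value above its own control in all 3 litters but the genotypes overlapping. Of 5 stromal genes detected, 3 were called lower (Col1a1, Pdgfra and Pdgfrb), beside 3.16% of all tested genes. Summed linear levels of the 5 were 1700 to 2021 in FoxD1;Dicer against 2246 to 3004 in Control pools. Col3a1 was not called (-0.52 ± 0.13, adjusted p = 0.078). Meis1 was not called either (-0.36 ± 0.25, adjusted p = 0.48), overlapped between genotypes and was higher in FoxD1;Dicer in litter 3. The part of the stromal genes in the Serpinh1 values was not tested.

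**Figure D2:**
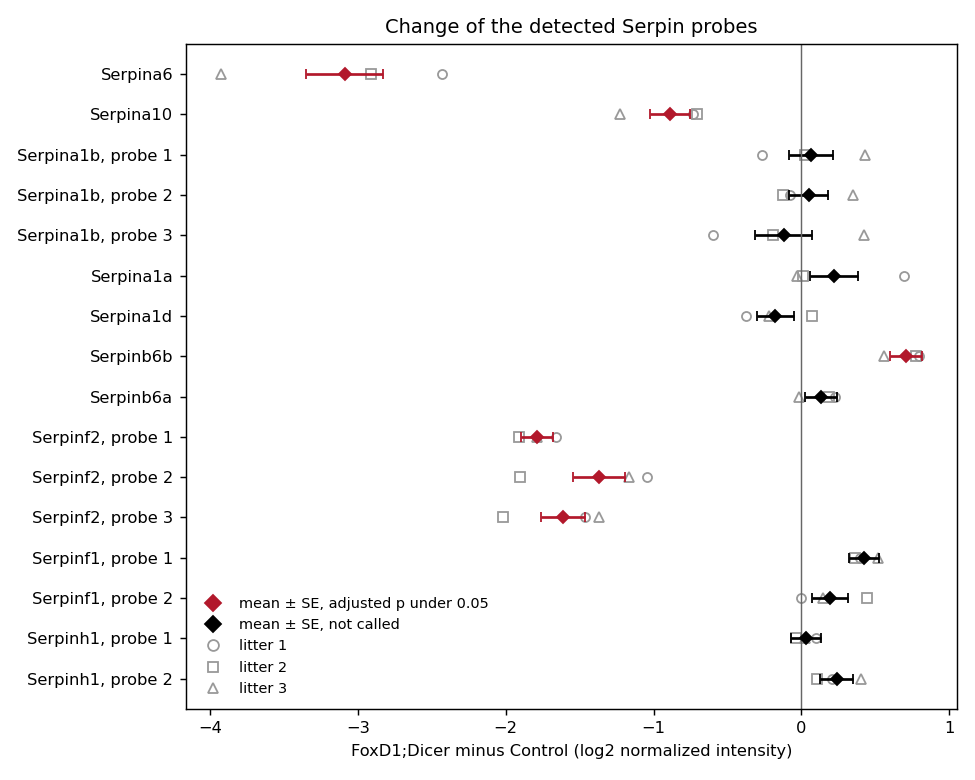
Change of the 16 detected Serpin probes, FoxD1;Dicer minus Control in log2 units, with 1 row for each probe, brightest first within a gene. Diamonds show mean ± SE (red, adjusted p under 0.05) and open symbols the 3 litters; the 3 Serpinf2 probes lay between -1.79 and -1.37, and the Serpinh1 and Serpina1 probes were not called.

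The 45 genes not detected had 59 probes with intensities of 81.4 to 123.9 on any array, near the array medians. By clade their range was 89.0 to 118.8 in A, 81.4 to 120.5 in B, 92.3 to 104.8 in C, 92.8 to 98.8 in D, 92.7 to 102.9 in E and 93.9 to 123.9 in I. Of these genes 41 were not detected on any array, and 4 were on 1 or 2: Serpini1, the neuroserpin gene, on 1 FoxD1;Dicer and 1 Control array, and Serpina3n, Serpinb1a and Serpinb3c on 1 FoxD1;Dicer array each. In clade A they were Serpina11, Serpina12, Serpina16, Serpina1c, Serpina1e, Serpina1f, Serpina3a, Serpina3b, Serpina3f, Serpina3i, Serpina3j, Serpina3n, Serpina4-ps1, Serpina5, Serpina7 and Serpina9. Among them are the inhibitor of activated protein C (Serpina5) and thyroxine-binding globulin (Serpina7). In clade B they were Serpinb1a, Serpinb1b, Serpinb1c, Serpinb2, Serpinb3a, Serpinb3c, Serpinb3d, Serpinb5, Serpinb6c, Serpinb6d, Serpinb6e, Serpinb7, Serpinb8, Serpinb9, its copies Serpinb9b to Serpinb9g, Serpinb10, Serpinb11, Serpinb12 and Serpinb13. These include the epithelial gene Serpinb5 (maspin) and Serpinb9, an inhibitor of granzyme B. The rest were Serpinc1 (antithrombin), Serpind1 (heparin cofactor II), Serpine3 and Serpini2. A signal at background does not show that a transcript was absent.

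**Figure D3:**
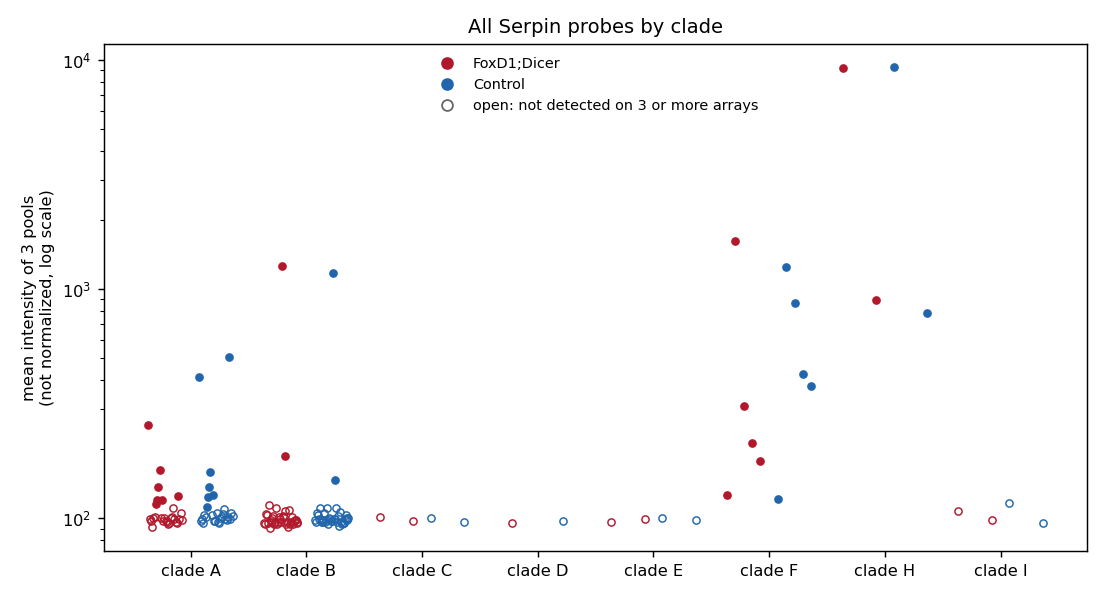
Mean intensity of all 79 Serpin probes before normalization, on a log scale, over the 3 FoxD1;Dicer pools (red) and the 3 Control pools (blue) by clade. Filled points were detected on at least 3 arrays; the points of the 45 genes not detected lie within 81.4 to 123.9, the range of their values on single arrays.

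Serpins act on proteases and other partners, which were read from the same model as 7 lists. Over all lists 10 of 74 tested genes were called, 5 higher and 5 lower, beside the 5.56% called among all tested genes (2.41% higher, 3.16% lower). Here too the threshold of 3 arrays admits a gene through the genotype in which it is high. With detection required on all 6 arrays 10 of 66 were called, 6 higher and 4 lower. In the plasminogen list, which Serpinf2 opposes, 0 of 6 detected genes were called. The plasminogen activator gene Plat stood at 9.54 ± 0.05 in FoxD1;Dicer and 9.49 ± 0.01 in Control kidneys (SD, n = 3; change 0.05 ± 0.10, adjusted p = 0.83), and Plau had a change of -0.42 ± 0.18 (adjusted p = 0.25). Plg, the precursor of plasmin, was not detected. In the coagulation list 3 of 12 detected genes fell, 0 rose and 9 did not pass (median change -0.50). F13b, 1 of the 3, was admitted through the Control pools, and with detection required on all 6 arrays 2 of 9 fell. F10, the factor whose active form Serpina10 inhibits, read 5.58, 6.02 and 5.88 in FoxD1;Dicer and 6.61, 7.28 and 7.08 in Control pools. No mutant pool reached the lowest control pool, and the gene was 2.24-fold lower (-1.16 ± 0.11, adjusted p = 0.0031). Its change was -0.46 with the authors' processed values, also called. F13b, a subunit of the factor that crosslinks fibrin, was not detected in any FoxD1;Dicer pool. After background correction and quantile normalization it was at least 2.06-fold lower (adjusted p = 0.0037). The bound puts each mutant value at no less than the lowest normalized value among detected probes of its array. The F13b change was -0.34 with the authors' processed values, -0.50 with the other scalings and called in each. These changes are smaller than the bound, which holds on the main scale alone. Kng1, the kininogen gene, changed by -0.71 ± 0.11 (adjusted p = 0.018), a call lost without litter 1 and with all probes tested (adjusted p = 0.051 in both). Without litter 2, F13b was the 1 gene of the 10 called.

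Among trypsin-like proteases 2 of 11 detected genes rose, 1 fell and 8 did not pass. Klk1, tissue kallikrein, read 11.07, 11.08 and 11.05 in FoxD1;Dicer and 8.71, 9.45 and 9.65 in Control pools (3.48-fold higher, 1.80 ± 0.19, adjusted p = 0.0043). Kallikreins resemble each other, so this probe is uncertain as a single gene. Htra1 was 1.56-fold higher (adjusted p = 0.040). Its call was lost with the authors' processed values (0.052), with median scaling (0.12), with all probes tested (0.11) and without litter 1 (0.12) or 2 (0.18). Corin, which activates natriuretic peptides, was 2.42-fold lower (-1.27 ± 0.11, adjusted p = 0.0024), and changed by -0.76 with the authors' processed values, also called. In the list of leukocyte serine proteases and cathepsins the 1 call among 9 detected genes was Ctsl, a lysosomal cysteine protease (0.62 ± 0.11, adjusted p = 0.030). The call was lost with the authors' processed values (0.18, adjusted p = 0.12), with median scaling (0.25, 0.33) and with quantile normalization alone (0.25, 0.069). It was also lost with all probes tested (adjusted p = 0.072), without litter 1 (0.11) and without litter 2 (0.21). Ctsg, the protease that human SERPINB6 inhibits, was not detected.

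Of 15 detected genes of procollagen folding, the pathway of Serpinh1, 0 were called (median change 0.07). P3h3, a prolyl hydroxylase, had -0.42 ± 0.10 (adjusted p = 0.070) and P4ha2 0.42 ± 0.16 (adjusted p = 0.20). In the list of hormone handling 1 of 6 detected genes was called: Ttr, transthyretin, a carrier of thyroid hormone, was 2.45-fold lower (-1.29 ± 0.15, adjusted p = 0.0063). The call was lost without the litter block (adjusted p = 0.060) and without litter 2 (0.088). Hsd11b1, which regenerates active glucocorticoid, had -0.49 ± 0.12 (adjusted p = 0.076), and the glucocorticoid receptor gene Nr3c1 was not detected. Among protease inhibitors of other families 2 of 16 detected genes rose and 14 did not pass. Spint1, a Kunitz inhibitor of epithelial proteases, was 1.48-fold higher (0.57 ± 0.11, adjusted p = 0.041). Its call was lost without litter 1 (adjusted p = 0.14), with the mean of its probes (0.13) and with all probes tested (0.086). Spink8, of the Kazal type, was 1.89-fold higher (0.92 ± 0.15, adjusted p = 0.019), a call lost with all probes tested (0.083).

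**Figure D4:**
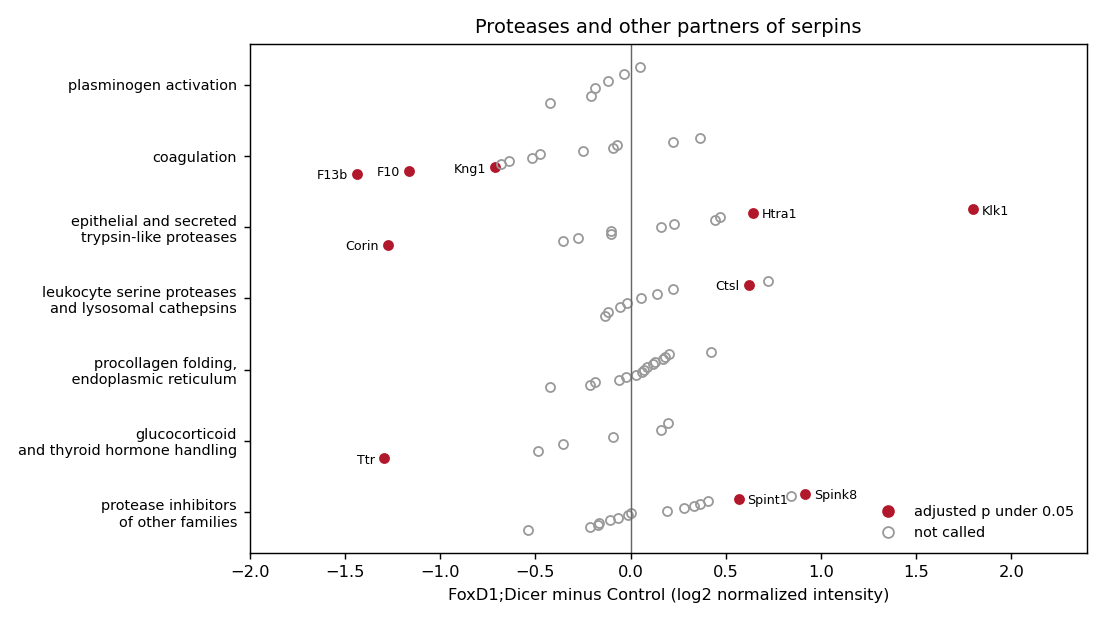
Change of each detected gene of the 7 partner lists, FoxD1;Dicer minus Control in log2 units, 1 point for each gene and red where the adjusted p was under 0.05. The 3 called coagulation genes lie at or below -0.71, and no gene of the plasminogen or procollagen lists is red.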

How the data were processed

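Total RNA of whole E18.5 kidneys was hybridised as biotin-labelled cRNA to 1-colour Illumina MouseWG-6 arrays. Per the file headers, the deposited table holds linear intensity values, with no normalization, beside a detection p-value per array. A second table holds the authors' log2 values, which the methods say were made with lumi; they rank probes as the intensities do (Spearman 1), have column medians of 6.82 to 6.83 and are not centred by gene, and their transform stays unknown. Of 45281 rows, 12 were damaged (missing or repeated name, missing cell, an intensity under 80, or a detection p off by over 0.05 from that of probes of equal intensity). Of the 45269 kept, 34873 had 1 gene symbol, 18 several and 10378 none; 34795 matched the RefSeq gene table (GRCm38.p6) and 0 symbols needed an update. Intensities were put through neqc in limma 3.58.1 (R 4.3.3; background from the detection p-values, quantile normalization, offset 16, log2). The size of a dim probe's change depends on this scale. lmFit and eBayes fitted genotype plus litter, the model formula of the study's methods (2 residual degrees of freedom and 4.76 from the prior; median SE 0.12). Pools of 1 litter deviated together (correlations 0.19, 0.18 and 0.14 across tested probes). SEs and intervals are moderated by eBayes. The number of arrays limits the precision. The model was tested on simulated data. Alternatives were the authors' values, other scalings, other filters, no block, an intensity trend, the mean of probes and leaving out each litter. Every detected serpin is named. Those called, those with an unadjusted p under 0.05 and the brightest of each clade are given in every pool. Of each list the called members with the 2 largest changes in each direction are named, and Kng1 was added outside this rule. Partner genes named without a call (Plat, Plau, P3h3, P4ha2 and Hsd11b1) were chosen after their values were seen. The members, lists and tests were chosen with earlier results of these data known.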

Additional observations from a re-analysis of the deposited data

How the results depend on the processing

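Of the 10 detected serpins, 4 were called, and 3 to 5 under the alternatives that kept all 6 pools. Serpinf2 was called in all 11 alternatives. With no litter block 3 serpins (0 higher, 3 lower), 528 of all tested genes and 13 partner genes were called, and with median scaling 3 serpins (0 higher, 3 lower). Leaving out 1 litter gave 1 to 4 serpins, 44 to 537 of all tested genes (552 with all litters) and 1 to 11 partner genes (10 with all litters). Any such fit has 1 residual degree of freedom. The lowest counts all came without litter 2, and the cause was not tested. All tested genes called numbered 335 with median scaling, 266 with all probes tested and 865 with an intensity trend. Partner genes called numbered 16 with quantile normalization and no background correction, 5 with all probes tested and 18 with the trend. With all probes tested Serpina10 was not called (adjusted p = 0.070). The changes that reversed were those of uncalled genes. Leaving out 1 litter gave -0.0113 to 0.35 for Serpina1a (lowest without litter 1), -0.12 to 0.23 for Serpina1b (lowest without litter 3) and -0.0045 to 0.065 for Serpinh1 (lowest without litter 1), and Serpina1b was at -0.0016 as the mean of its probes. Low signal limits Serpina6 in the FoxD1;Dicer pools and the antitrypsin genes in all pools.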
